A study of Mus musculus with 57 samples.

Results

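The knock-in mutation Mfn2-R707W was followed in 2 adipose depots of mice on a high-fat diet (HFD), and the question was which genes responded to genotype in 1 depot only or in opposite directions. The measure was the difference between depots of the genotype effect, (KI minus WT in inguinal white adipose tissue, WAT) minus (KI minus WT in brown adipose tissue, BAT), as a log2 value. It was positive where the KI effect was higher in inguinal WAT and negative where it was higher in BAT. The members were the 28 RNA-seq profiles of HFD-fed mice among 41 of the whole series, with 8 KI and 8 WT mice for inguinal WAT and 6 KI and 6 WT mice for BAT, and 485 of 17214 genes tested had such a depot difference at an adjusted p below 0.01.

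All mice were males that, by the labels and the study's methods, began the HFD at 5 weeks of age (legends in the study give an older starting age) and stayed on it for up to 6 months, with 45% of energy as fat. WT mice were wild-type C57BL/6J, and KI mice were homozygous for R707W (p.Arg707Trp) in every cell of the body. The line was made by CRISPR-Cas9 and expanded on the same background from 1 founder, so effects of the mutation and of other changes carried by that founder cannot be told apart. Each inguinal profile on HFD joined 2 libraries of 1 mouse and each BAT profile was 1 library. Replicates were separate mice, and whether the 2 depots came from the same mice was not stated.

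Mitofusin 2 sits in the outer mitochondrial membrane, fuses mitochondria and takes part in their contacts with the endoplasmic reticulum (ER). Brown adipocytes are packed with mitochondria and burn fat through the uncoupling protein Ucp1, whereas inguinal white adipocytes mainly store triglyceride and secrete hormones such as leptin. Mitochondrial stress is known to start the integrated stress response (ISR), in which phosphorylation of eIF2 raises Atf4 and its targets for amino acid supply and redox defence. Sterol synthesis is run by the transcription factor Srebp2, which is released from the ER when sterol is low and held there by Insig proteins when sterol is ample.

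Total counts ranged from 8042591 to 10522554 in BAT and from 17572752 to 25680411 in inguinal WAT, and mitochondrially encoded genes took a median of 11.2% (KI) and 16.2% (WT) of BAT counts against 2.52% and 9.91% in inguinal WAT. Levels below are counts scaled by library size (CPM) and are given as the lowest, median and highest mouse of a group. The depot labels held in every mouse. The summed level of 7 brown identity genes, Ucp1 among them, was 11919.9, 16233 and 18883 CPM in KI BAT and 10883, 12938 and 15230.3 CPM in WT BAT, against at most 59.8 CPM in inguinal WAT. In 7 profiles (BAT WT 1 and 2, BAT KI 6, inguinal KI 3 and 5, inguinal WT 1 and 2) 14 skeletal muscle markers summed to over 1000 CPM, against at most 899.4 CPM in the others, and 36 of 94 named genes with a depot difference were not called when they were left out. For those of the 36 described below the adjusted p without these profiles is given beside the result. Some genes described below, such as Sesn2, Esrrg, Otop1, Pank1, Mlxipl, mt-Co1 and Hp, are not among the 94. For them no value without these profiles is given, so that a missing value does not mean that the call held. In 3 inguinal profiles (KI 2, WT 2 and WT 6) the B cell gene Cd79a was above 50 CPM. In bulk tissue, fewer cells of a type and less RNA per cell cannot be told apart.

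**Figure D1:**
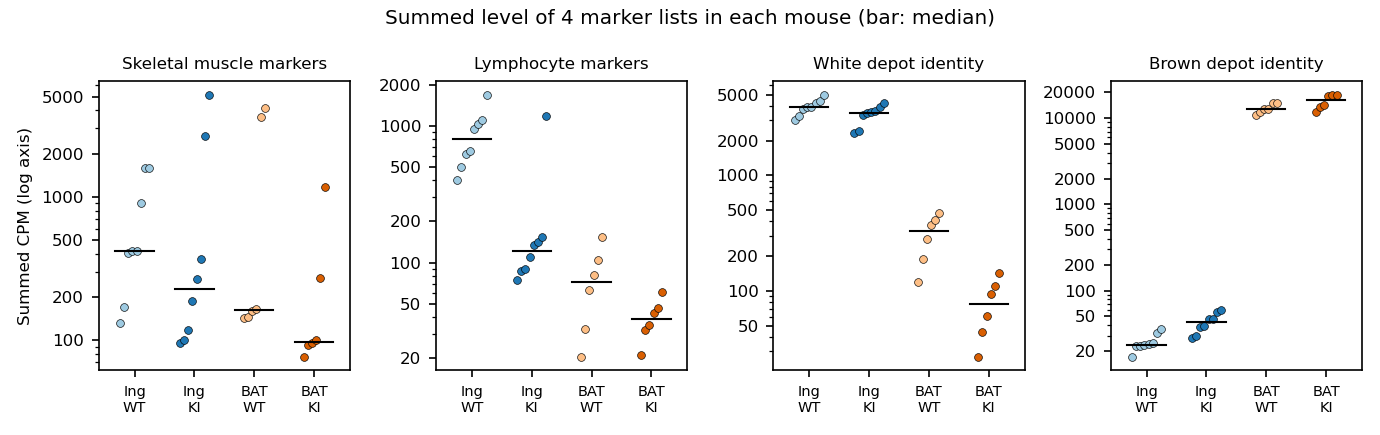
Summed level of 4 marker lists in each mouse (CPM, log axis), by depot and genotype, with 1 point per mouse and the median as a bar. Muscle RNA is high in 7 mice that fall in all 4 groups but unevenly, and in BAT it is higher in WT 1 and 2 (3615 and 4154 CPM) than in KI 6 (1173 CPM). White depot RNA in BAT is lower in KI (median 77.8 CPM) than in WT mice (median 328 CPM), and the lymphocyte sum in inguinal WAT, most of which is Ighm, is lower in KI (median 121 CPM) than in WT mice (median 807 CPM).

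No depot difference was called for Mfn2 itself. In inguinal WAT its levels were 151, 198 and 231 CPM in KI and 126, 148 and 189 CPM in WT mice, and in BAT they were 340.4, 420.2 and 543 CPM in KI and 332, 337 and 366 CPM in WT mice. The genotypes overlapped in both depots. For Mfn2, KI minus WT was 0.33 ± 0.09 (SE, log2) in inguinal WAT and 0.33 ± 0.11 in BAT, and the depot difference was 0.01 ± 0.14 (adjusted p = 0.99, 95% interval -0.28 to 0.29). A single amino acid exchange leaves the transcript countable, so these counts do not check the genotype labels. The other mitofusin, Mfn1, had a depot difference of -0.22 ± 0.13 (adjusted p = 0.34).

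The 485 genes with a depot difference were 2.82% of those tested, 213 of them positive (1.24%) and 272 negative (1.58%), and 3794 genes (22%) had an unadjusted p below 0.05. The single-depot contrasts of the same fit called 1430 genes in inguinal WAT (8.31%), 719 higher (4.18%) and 711 lower (4.13%) in KI mice. In BAT they called 792 genes (4.6%), 539 higher (3.13%) and 253 lower (1.47%). Complete separation of KI from WT mice was seen in 776 genes of inguinal WAT (4.51%) and 518 genes of BAT (3.01%). Of the 485 genes, 231 (1.34% of those tested) were called in inguinal WAT only, 151 (0.877%) in BAT only, 24 (0.139%) in both in opposite directions and 8 (0.0465%) in both in the same direction but by unequal amounts. The last 71 (0.412%) were called in neither depot.

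In 403 of the 485 genes the estimates of the 2 depots had different signs, which includes genes with 1 estimate close to zero. Of the 231 genes called in inguinal WAT only, 101 were lower there with a BAT estimate above zero, 82 were higher there with a BAT estimate below zero, and 48 had the same sign in both. A stricter reading asked that the 95% interval of the other depot lie within a fold of 1.5. It left 102 inguinal-only and 101 BAT-only genes. For the other 129 and 50, a sizeable effect in the other depot remained possible. Of the 485 genes, 440 passed the count filter in both depots taken alone, as did 13142 of the 17214 tested, 35 passed it in inguinal WAT alone and 7 in BAT alone.

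**Figure D2:**
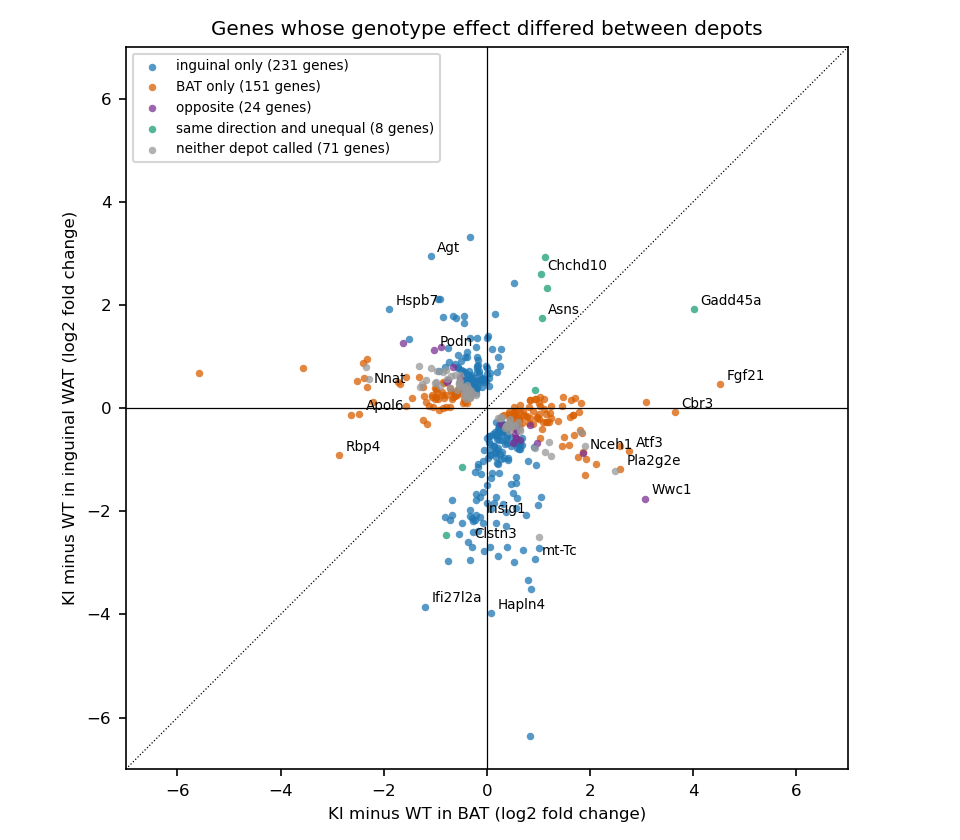
Genotype effect (KI minus WT, log2 fold change) in inguinal WAT against that in BAT for the 485 genes with a depot difference, 1 point per gene, coloured by class, with a dotted line where both effects are equal. Most points (403) lie in the quadrants of opposite sign, some of them close to an axis. By class, 231 genes are called in inguinal WAT only, 151 in BAT only and 71 in neither depot. A further 24 are called in both with opposite signs, and only 8 in both with the same sign. A gene called in 1 depot only can lie well off the axes. Estimates beyond -5 on either axis belong to genes at or near zero counts in 1 group and depend on the prior count.

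ISR genes were raised in KI mice in both depots, but 4 of them were called in BAT only. Of 23 ISR factors and effectors tested, 11 rose in inguinal WAT and 14 rose in BAT, and the 4 with a depot difference (17.4% against 2.82% of all genes) were all on the negative side. They were Fgf21, a hormone released under mitochondrial and nutrient stress, Atf3, a stress-induced repressor and activator of transcription, Vldlr, a receptor that takes up triglyceride-rich lipoprotein, and Sesn2, a leucine sensor that restrains mTORC1. The median depot difference of the list was -0.20, against 0.002 over all genes. DESeq2 called 11 rises in inguinal WAT and 14 in BAT, with 4 negative and 1 positive depot difference. By limma-voom 12 rose in inguinal WAT, only 4 rose in BAT, and 2 depot differences were called, both negative. No depot difference was called for the central factors. Atf4 was 1.06 ± 0.12 in inguinal WAT and 0.71 ± 0.13 in BAT, Atf5 was 2.55 ± 0.18 and 1.95 ± 0.20, and the pseudokinase Trib3 was 3.17 ± 0.34 and 3.57 ± 0.41. The depot difference of Mthfd2, a mitochondrial folate enzyme, was -1.12 ± 0.30 (adjusted p = 0.021), and that of Ddit3 (Chop) was -0.81 ± 0.36 (adjusted p = 0.18).

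Atf3 (ENSMUSG00000026628, chr1:191170296-191218039, GRCm38) had the smallest adjusted p of the 4. In BAT its levels were 26.3, 123 and 212 CPM in KI and 8.64, 18.5 and 26.9 CPM in WT mice, and in inguinal WAT 6.18, 10.2 and 26 CPM in KI and 8.31, 22 and 35.7 CPM in WT mice. In BAT the WT mice were exceeded by 5 of 6 KI mice, and KI 6 lay just below the highest WT mouse, while in inguinal WAT the groups overlapped with the KI median below the WT median. The genotype effect on Atf3 was 2.76 ± 0.46 in BAT (adjusted p = 0.00032) and -0.84 ± 0.37 in inguinal WAT (adjusted p = 0.14). The depot difference was -3.59 ± 0.59 (adjusted p = 0.00037), and it was called in all 28 fits that left out 1 profile each. BAT fitted on its own gave an adjusted p of 0.011 for the rise of Atf3, so that neither depot was called.

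Fgf21 (ENSMUSG00000030827, chr7:45613886-45615490) showed the largest fold change in BAT of the list members with a depot difference, with a wide spread. In BAT its levels were 2.3, 20.8 and 152 CPM in KI and 0.325, 1.17 and 5.79 CPM in WT mice, and in inguinal WAT 1.31, 2.26 and 3.04 CPM in KI and 0.728, 1.27 and 3.42 CPM in WT mice. BAT KI mice were higher than all WT mice in 5 of 6 cases, and BAT KI 5 stood far above the rest. The log2 change in Fgf21 was 4.53 ± 0.76 in BAT (adjusted p = 0.00033) against 0.47 ± 0.58 in inguinal WAT, where the groups overlapped. The depot difference was -4.05 ± 0.94 (adjusted p = 0.0085), but it moved to -2.98 without BAT KI 5 and -4.84 without BAT WT 4, and only 6 of 28 leave-one-out fits called it. Without the 7 muscle-rich profiles it was -3.76 ± 0.98 (adjusted p = 0.042). BAT fitted on its own gave an adjusted p of 0.043 for the rise of Fgf21, and limma-voom did not call the depot difference (adjusted p = 0.19).

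Vldlr rose in BAT, with an inguinal estimate below zero. Its levels were 162, 188 and 325 CPM in KI and 116, 128 and 163 CPM in WT mice in BAT and 71.4, 102 and 111 CPM in KI and 104, 119 and 149 CPM in WT mice in inguinal WAT. The lowest BAT KI mouse was just below the highest WT mouse, and the inguinal groups overlapped slightly. KI minus WT was 0.62 ± 0.15 in BAT (adjusted p = 0.0054) and -0.36 ± 0.12 in inguinal WAT (adjusted p = 0.05), with a depot difference of -0.98 ± 0.19 (adjusted p = 0.0015). Neither depot was called for Vldlr by limma-voom or in separate fits per depot (BAT adjusted p = 0.032). For Sesn2 the depot difference was -0.84 ± 0.20 (adjusted p = 0.0081), with 0.62 ± 0.15 in BAT and -0.22 ± 0.13 in inguinal WAT.

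Atf4 and its partners bind a composite C/EBP-Atf response element (CARE), here written TGATGNAA and searched on both strands. It was found in the 250 bases before the start of 3 of the genes above, and of Asns, a classical Atf4 target. These promoters, from RefSeq on GRCm38.p6, are shown because they carry a common motif while the genes differ in their depot response. Capitals mark the motif. Fgf21 is on the minus strand at chr7:45615491-45615740, Atf3 on the minus strand at chr1:191183334-191183583, Vldlr on the plus strand at chr19:27216770-27217019 (a second RefSeq start of Vldlr, with its window at chr19:27216234-27216483, had no match) and Asns on the minus strand at chr6:7693210-7693459.
Fgf21: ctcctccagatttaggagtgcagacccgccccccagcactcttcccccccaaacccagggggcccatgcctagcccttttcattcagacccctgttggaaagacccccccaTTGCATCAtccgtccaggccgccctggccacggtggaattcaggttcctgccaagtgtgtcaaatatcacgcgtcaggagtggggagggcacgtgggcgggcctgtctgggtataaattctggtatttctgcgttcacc
Atf3: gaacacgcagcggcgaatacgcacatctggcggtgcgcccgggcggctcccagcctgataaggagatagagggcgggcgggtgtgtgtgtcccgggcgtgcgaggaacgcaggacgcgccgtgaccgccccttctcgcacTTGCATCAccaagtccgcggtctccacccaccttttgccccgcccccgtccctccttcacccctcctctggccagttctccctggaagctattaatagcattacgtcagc
Vldlr: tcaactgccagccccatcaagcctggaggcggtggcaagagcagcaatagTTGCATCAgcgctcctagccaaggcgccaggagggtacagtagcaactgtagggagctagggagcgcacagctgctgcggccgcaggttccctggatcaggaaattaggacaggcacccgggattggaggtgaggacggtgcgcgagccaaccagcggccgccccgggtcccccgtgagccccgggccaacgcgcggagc
Asns: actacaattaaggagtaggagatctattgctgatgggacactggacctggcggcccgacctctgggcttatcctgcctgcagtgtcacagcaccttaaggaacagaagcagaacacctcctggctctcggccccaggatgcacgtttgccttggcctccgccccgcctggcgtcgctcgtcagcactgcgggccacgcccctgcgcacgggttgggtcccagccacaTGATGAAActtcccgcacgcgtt
In Fgf21, Atf3 and Vldlr the capitals are the motif read on the opposite strand. Between the motif and the start lay 131, 102, 192 and 15 bases in Fgf21, Atf3, Vldlr and Asns. The motif was present in 1056 of 27025 promoters of the same length (3.91%) and in 298 of 12017 promoters of tested genes (2.48%). Among tested genes it was in 6 of 20 ISR promoters (30%), in 5 of 159 of inguinal-only genes (3.14%) and in 5 of 101 of BAT-only genes (4.95%). A match is a description of the letters and not a site of binding. No match was found for Sesn2, Trib3, Mthfd2, Ddit3 or Gadd45a in these windows.

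Asns, which makes asparagine, rose in both depots and more in inguinal WAT. Its levels were 77.8, 89.3 and 109 CPM in KI and 20.8, 29.2 and 35.1 CPM in WT mice in inguinal WAT, and 84.1, 103 and 142 CPM in KI and 47.5, 50.2 and 52.8 CPM in WT mice in BAT. KI mice lay above all WT mice in both depots. The log2 effect for Asns was 1.74 ± 0.10 in inguinal WAT and 1.07 ± 0.12 in BAT, with a depot difference of 0.67 ± 0.16 (adjusted p = 0.0079) that only 9 of 28 leave-one-out fits called and that had an adjusted p of 0.082 without the muscle-rich profiles. It went the other way from Fgf21, Atf3, Vldlr and Sesn2. In the amino acid synthesis list 2 of 19 genes differed by depot, Asns and the alanine transaminase Gpt2 (0.75 ± 0.18, adjusted p = 0.0094), which was called in neither depot alone, in 7 of 28 leave-one-out fits and not without the muscle-rich profiles (adjusted p = 0.016).

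No depot difference was called by edgeR for tRNA synthetases or mitochondrial chaperones. Of 19 cytosolic aminoacyl-tRNA synthetases, which load tRNAs with amino acids, 10 rose in inguinal WAT and 11 rose in BAT. None was called for a depot difference by edgeR, although 7 had an unadjusted p below 0.05, all on the negative side, and DESeq2 called 2 and limma-voom called none. The list medians were 0.39 in inguinal WAT and 0.66 in BAT. Of 21 mitochondrial chaperones and proteases 5 rose in each depot, again with no depot difference by edgeR, 4 at an unadjusted p below 0.05, 1 by DESeq2 and none by limma-voom. Among 17 amino acid transporters, 4 differed by depot. Slc3a2, the heavy chain of the leucine and cystine carriers, rose in BAT only (1.11 ± 0.17 against -0.02 ± 0.14, adjusted p of the difference 0.0014). Slc36a2, a surface marker of brown adipocytes, fell in inguinal WAT only (-1.66 ± 0.12 against -0.20 ± 0.14, adjusted p = 9.5e-06). Slc1a3 and Slc43a1 rose in inguinal WAT only, with depot differences of 1.41 ± 0.31 and 1.61 ± 0.35 that were not called without the muscle-rich profiles (adjusted p = 0.033 and 0.0101).

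**Figure D3:**
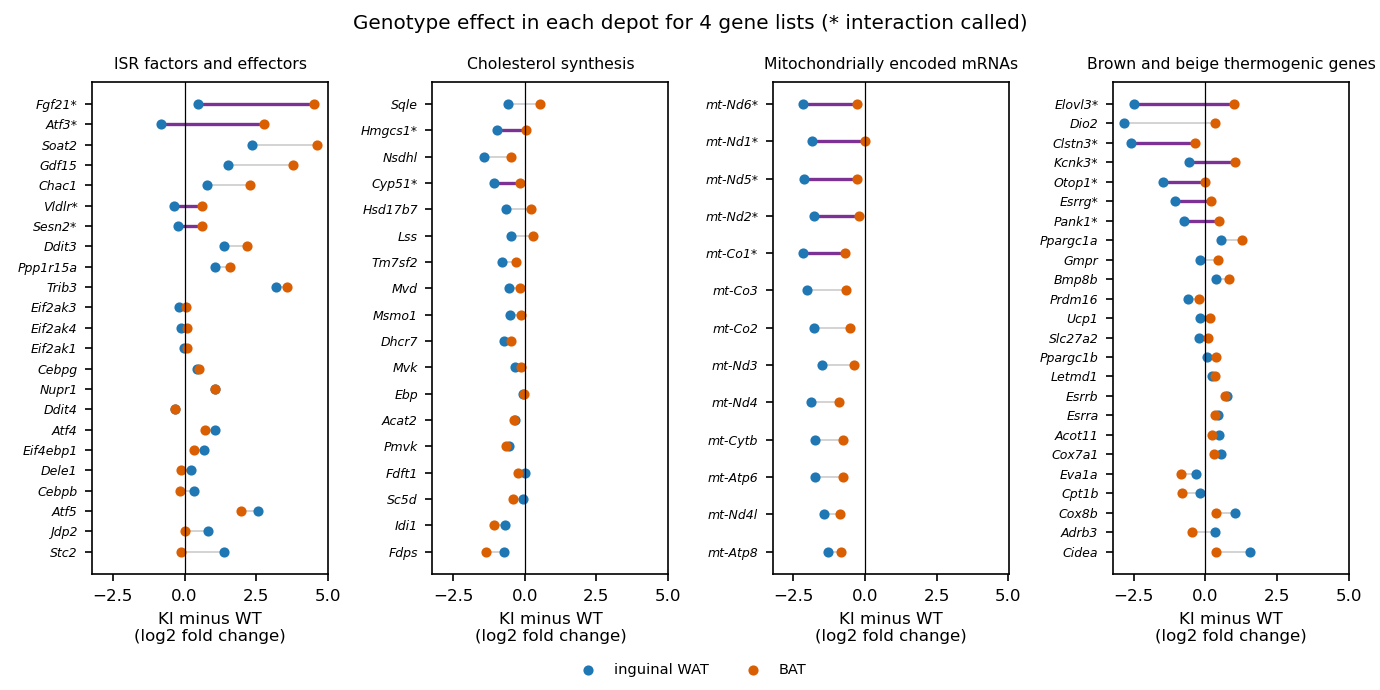
KI minus WT (log2 fold change) in inguinal WAT (blue) and BAT (orange) for genes of 4 lists, joined by a line, purple and starred where the depot difference was called at an adjusted p below 0.01. Starred genes number 4 of 23 for the ISR, 2 of the 18 drawn for cholesterol synthesis, 5 of 13 for mitochondrially encoded mRNAs and 6 of 24 for thermogenic genes, and in each of them the BAT point lies to the right.

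Genes of cholesterol synthesis fell in inguinal WAT, and none was called in BAT. Of 20 enzymes tested, 8 fell in inguinal WAT, with a list median of -0.58. In BAT none was called by edgeR, DESeq2 or limma-voom, 6 had an unadjusted p below 0.05, and the median was -0.20. A depot difference was called for 3 of the 20 (15% against 2.82% of all genes), Hmgcs1 and Cyp51 among them, all on the negative side, and 14 of the 20 estimates were below zero. DESeq2 called 5 and limma-voom 2.

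Hmgcs1 (ENSMUSG00000093930, chr13:119690379-119708260), the synthase at the entry of the mevalonate pathway, had the smallest adjusted p of the 3. In inguinal WAT its levels were 119.5, 127 and 185 CPM in KI and 181, 272 and 339 CPM in WT mice, and in BAT 184, 246 and 300.0 CPM in KI and 219.8, 232 and 265 CPM in WT mice. All but 1 of the inguinal KI mice lay below every WT mouse, the exception being KI 3, whereas the BAT groups overlapped. For Hmgcs1, KI minus WT was -0.97 ± 0.12 in inguinal WAT (adjusted p = 4.9e-07) and 0.03 ± 0.14 in BAT (95% interval -0.25 to 0.31), and the depot difference was -0.998 ± 0.18 (adjusted p = 0.00065), called under every alternative run.

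Srebp2 binds the sterol regulatory element, written TCACNCCAC. The 250 bases before the Hmgcs1 start, on the plus strand at chr13:119690101-119690350 (RefSeq, GRCm38.p6), are shown because they hold this element, in capitals, with 128 bases between it and the start.
Hmgcs1: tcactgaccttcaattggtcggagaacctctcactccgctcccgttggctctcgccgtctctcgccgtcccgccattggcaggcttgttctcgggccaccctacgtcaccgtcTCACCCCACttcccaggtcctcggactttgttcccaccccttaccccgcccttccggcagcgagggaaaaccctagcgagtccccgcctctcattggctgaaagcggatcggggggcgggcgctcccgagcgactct
Searched on both strands, it was present in 331 of 27025 promoters (1.22%) and in 1 of 15 promoters of the cholesterol list (6.67%). The shorter letters CCAAT, bound by NF-Y, were in 14 of those 15 (93.3%) and in 37.5% of all promoters. For Insig1 and Cyp51 the sterol element was not found in the window.

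Insig1, the ER retention factor and itself a Srebp2 target, fell in the same depot. Its levels were 32.2, 37.7 and 53.8 CPM in KI and 82.3, 155 and 322 CPM in WT mice in inguinal WAT, and 82.7, 119 and 289 CPM in KI and 78.5, 159.6 and 216 CPM in WT mice in BAT. Every inguinal KI mouse was below every WT mouse, a separation that 407 of the genes tested (2.36%) had in this direction and depot. In BAT the groups overlapped and KI 5 was highest. The genotype effect on Insig1 was -2.11 ± 0.27 in inguinal WAT (adjusted p = 2.8e-06) and -0.14 ± 0.30 in BAT, with a depot difference of -1.96 ± 0.40 (adjusted p = 0.0031), and of -1.81 ± 0.47 (adjusted p = 0.036) without the muscle-rich profiles.

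Cyp51, the lanosterol demethylase, was -1.08 ± 0.14 in inguinal WAT and -0.17 ± 0.17 in BAT (depot difference -0.91 ± 0.22, adjusted p = 0.0093), called in 6 of 28 leave-one-out fits and with an adjusted p of 0.11 without the muscle-rich profiles. Sqle, which oxidises squalene, was -0.60 ± 0.20 and 0.54 ± 0.24 with an adjusted p of 0.021, and the depot difference of the mevalonate kinase Mvk was -0.21 ± 0.17, not called.

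Of 11 genes of Srebp control and sterol uptake, 2 fell in inguinal WAT, 1 rose in BAT and 2 differed by depot (18.2%), Insig1 and Npc1. Npc1, which exports cholesterol from lysosomes, had levels of 43.2, 61.1 and 64.9 CPM in KI and 33.4, 35.3 and 40.0 CPM in WT mice in BAT, and 25.6, 28.1 and 29.7 CPM in KI and 26.2, 29.2 and 31.4 CPM in WT mice in inguinal WAT. All BAT KI mice were above all WT mice, as for 342 of the genes tested (1.99%), and the inguinal groups overlapped. The log2 change in Npc1 was 0.70 ± 0.08 in BAT (adjusted p = 1.5e-06) and -0.05 ± 0.07 in inguinal WAT (95% interval -0.20 to 0.09), with a depot difference of -0.75 ± 0.11 (adjusted p = 5.9e-05).

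Of 11 genes of cholesterol efflux and LXR, 2 rose and 1 fell in inguinal WAT, 1 fell in BAT and 2 differed by depot, Apoe and Lpcat3. Apoe, the apolipoprotein that carries cholesterol out of cells, moved in opposite directions. Its levels were 4755, 5559.9 and 6426 CPM in KI and 2017, 2517 and 2826 CPM in WT mice in inguinal WAT, and 292, 1283 and 1398 CPM in KI and 1298, 2066 and 2763 CPM in WT mice in BAT. In inguinal WAT every KI mouse was above every WT mouse, a separation that 369 of the genes tested (2.14%) had. The BAT groups overlapped, and KI 5 was lowest. KI minus WT was 1.18 ± 0.19 in inguinal WAT (adjusted p = 4.3e-05) and -0.89 ± 0.22 in BAT (adjusted p = 0.0079), and the depot difference was 2.07 ± 0.29 (adjusted p = 3.5e-05). Without the muscle-rich profiles the BAT fall was -0.68 ± 0.27 (adjusted p = 0.13). Gramd1c, which carries cholesterol from the plasma membrane to the ER, fell in inguinal WAT only (-2.75 ± 0.28 against 0.70 ± 0.32, adjusted p of the difference 6.1e-06). Lpcat3, a phospholipid-remodelling target of LXR, had a depot difference of -0.81 ± 0.18 (adjusted p = 0.0043, and 0.042 without the muscle-rich profiles) with neither depot called.

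**Figure D4:**
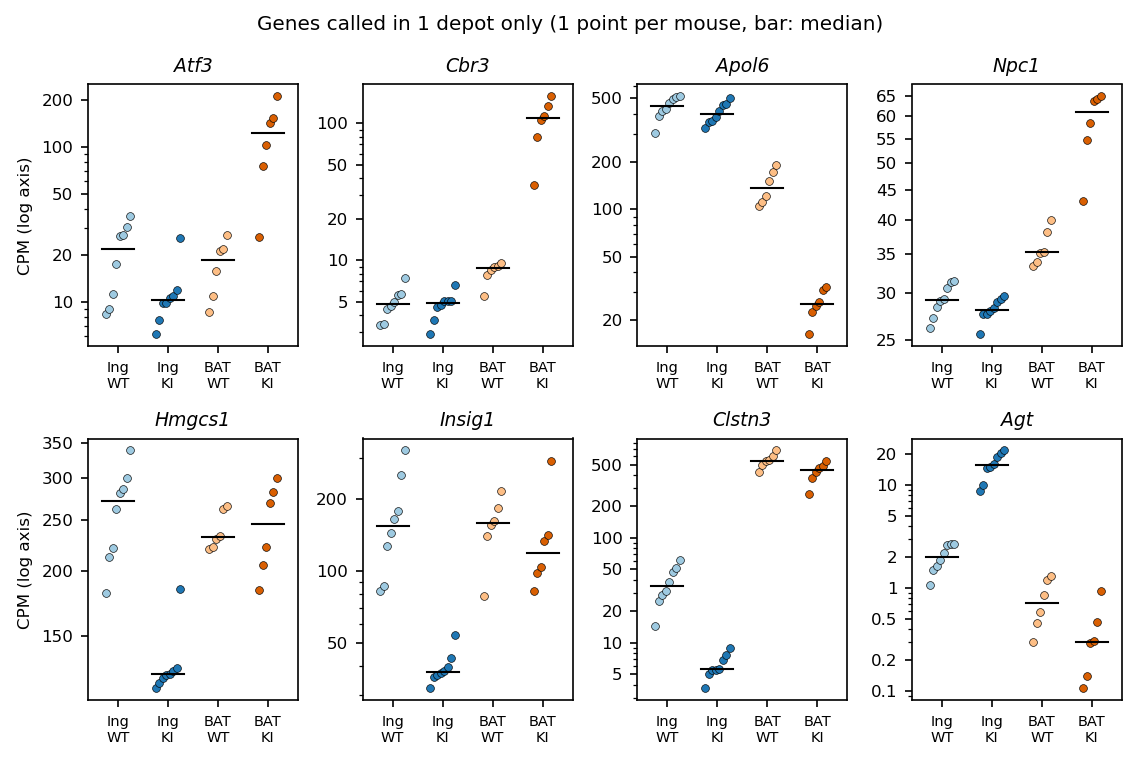
Levels of 8 genes called in 1 depot only, in CPM on a log axis, with 1 point per mouse and the median as a bar. Upper row, BAT only: Atf3, Cbr3 and Npc1 are higher and Apol6 is lower in BAT KI mice, with inguinal groups that overlap. Lower row, inguinal only: Hmgcs1, Insig1 and Clstn3 are lower and Agt is higher in inguinal KI mice, with BAT groups that overlap.

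Mitochondrially encoded mRNAs fell in inguinal WAT, and few were called in BAT. All 13 mRNAs, which encode subunits of the respiratory chain, fell in inguinal WAT, with a median of -1.79. In BAT 1 fell, mt-Nd4, with a list median of -0.66, 8 had an unadjusted p below 0.05, and DESeq2 called 3 and limma-voom 1. A depot difference was called for 5 of 13 (38.5%), mt-Nd1, mt-Nd2, mt-Nd5, mt-Nd6 and mt-Co1. DESeq2 called 9 and limma-voom 5. The labels give the libraries as polyA RNA, and these transcripts share 1 genome and its transcription, so they are not independent of each other.

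For mt-Nd5 the levels were 985, 1116 and 1780.5 CPM in KI and 3177, 5574 and 8261 CPM in WT mice in inguinal WAT, and 3222, 3924 and 4458 CPM in KI and 2755, 4847 and 6202 CPM in WT mice in BAT. KI mice lay wholly below WT mice in inguinal WAT and among them in BAT. The log2 effect for mt-Nd5 was -2.13 ± 0.18 (adjusted p = 3.4e-10) against -0.29 ± 0.20 (adjusted p = 0.36), with a depot difference of -1.83 ± 0.26 (adjusted p = 4.1e-05). For mt-Nd1 the effect was -1.85 ± 0.21 in inguinal WAT and -0.01 ± 0.24 in BAT (95% interval -0.49 to 0.48), and the adjusted p of its depot difference was 0.00037, or 0.011 without the muscle-rich profiles. For mt-Co1 the levels were 5237, 6075 and 10705 CPM in KI and 15619, 32147 and 49813 CPM in WT mice in inguinal WAT, and 35719, 46815 and 54668 CPM in KI and 57283, 76852 and 93355 CPM in WT mice in BAT. Every KI mouse lay below every WT mouse in both depots. The effect on mt-Co1 was -2.17 ± 0.19 in inguinal WAT and -0.72 ± 0.22 in BAT (adjusted p = 0.029), with a depot difference of -1.45 ± 0.29 (adjusted p = 0.0015). The mitochondrial tRNA mt-Tc had the largest difference of these genes, -3.87 ± 0.48 (adjusted p = 1.2e-05), with -2.93 ± 0.33 in inguinal WAT and 0.94 ± 0.35 in BAT.

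Among 80 nuclear-encoded respiratory chain subunits, 7 rose (8.75% against 4.18% of all genes) and 1 fell in inguinal WAT, and 2 rose in BAT (2.5% against 3.13%). The estimate was above zero for 69 of the 80 in inguinal WAT (median 0.17) and for 75 in BAT (median 0.28). None was called for a depot difference by edgeR or limma-voom and 1 by DESeq2, with 9 at an unadjusted p below 0.05. Of 77 mitochondrial ribosomal proteins 3 rose in inguinal WAT and 13 rose in BAT, 24 had an unadjusted p below 0.05 for the depot difference, 22 of them negative, and Mrpl15 was the 1 called (-0.58 ± 0.14, adjusted p = 0.0092, called in 6 of 28 leave-one-out fits, and 0.098 without the muscle-rich profiles). DESeq2 called 4 rises in inguinal WAT, 16 in BAT and 2 negative depot differences. By limma-voom 9 rose in inguinal WAT, 1 rose in BAT and no depot difference was called.

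Thermogenic genes with a depot difference did not include Ucp1. Of 24 brown and beige genes, 6 had a depot difference (25% against 2.82%), all negative: Clstn3, Elovl3, Esrrg, Kcnk3, Otop1 and Pank1. Ucp1 in BAT was 4479.9, 6738 and 8145 CPM in KI and 4065, 6240.5 and 6981 CPM in WT mice, with overlapping groups, and at most 1.71 CPM in any inguinal mouse. Its depot difference was -0.35 ± 0.54 (adjusted p = 0.77). The inguinal side of these differences concerns the small amount of brown and beige RNA in a white depot. That RNA did not fall as a whole. Of the 24 genes, 2 rose and 5 fell in inguinal WAT, with 11 estimates above zero. The 7 brown identity genes summed there to 28.3, 42.6 and 59.8 CPM in KI and 17.0, 23.6 and 35.6 CPM in WT mice, and 2 of the 7 rose.

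Clstn3, calsyntenin 3, had levels of 3.7, 5.57 and 9.01 CPM in KI and 14.6, 34.9 and 61.6 CPM in WT mice in inguinal WAT, and 261, 445 and 546 CPM in KI and 424, 545 and 683 CPM in WT mice in BAT. KI mice were wholly below WT mice in inguinal WAT and overlapped with them in BAT. For Clstn3, KI minus WT was -2.60 ± 0.23 in inguinal WAT (adjusted p = 2.5e-09) and -0.36 ± 0.24 in BAT (adjusted p = 0.35), with a depot difference of -2.24 ± 0.33 (adjusted p = 8e-05). Kcnk3, a potassium leak channel, was the 1 of these 6 that was called higher in BAT. Its levels there were 608, 907 and 1245 CPM in KI and 318, 397 and 743 CPM in WT mice. In inguinal WAT they were 19.3, 32.2 and 40.1 CPM in KI and 37.1, 46.3 and 64.6 CPM in WT mice. The groups overlapped in both depots. The genotype effect on Kcnk3 was 1.03 ± 0.20 in BAT (adjusted p = 0.001) and -0.58 ± 0.17 in inguinal WAT (adjusted p = 0.02), with a depot difference of -1.62 ± 0.26 (adjusted p = 0.00022). Separate fits per depot called the inguinal fall of Kcnk3 (adjusted p = 0.0043) in place of the BAT rise (adjusted p = 0.019), and so did limma-voom.

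Otop1, a proton channel of brown and beige fat, fell by 1.49 in inguinal WAT and was at 0.00 ± 0.18 in BAT (adjusted p of the difference 0.0004). Esrrg, an orphan nuclear receptor for oxidative genes, and Pank1, which starts coenzyme A synthesis, were called lower in inguinal WAT only. Their depot differences were -1.25 ± 0.28 and -1.21 ± 0.20. In BAT Esrrg was at 0.19 ± 0.21, and Pank1 was at 0.47 ± 0.14 (adjusted p = 0.029), with 5 of 6 KI mice above all WT mice. Elovl3, an elongase of cold-exposed brown fat, had a depot difference of -3.51 ± 0.82 (adjusted p = 0.0092) with neither depot called, -2.85 without BAT KI 5, was called in 6 of 28 leave-one-out fits and had an adjusted p of 0.13 without the muscle-rich profiles. Among 13 genes of creatine and calcium cycling, Ckb, the brain-type creatine kinase, rose in BAT only (1.23 ± 0.24 against -0.09 ± 0.20, adjusted p of the difference 0.0092, called in 10 of 28 leave-one-out fits, and 0.049 without the muscle-rich profiles), and the calcium release channel Ryr2 fell in inguinal WAT only (-2.10 ± 0.23 against -0.33 ± 0.26, adjusted p = 0.0013, and 0.019 without the muscle-rich profiles).

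Adipokines moved apart through falls in BAT and a rise in inguinal WAT. Of 17 tested, 8 fell in BAT, 2 rose and 2 fell in inguinal WAT, and 3 had a positive depot difference (17.6%), Agt, Rbp4 and Nnat. The median depot difference was 0.50. DESeq2 also called 8 falls in BAT, but limma-voom called only 2, with 4 positive and 1 negative depot difference. The adipokine list shares Nnat, a large part of the marker sum in WT BAT (levels below), with the white depot identity markers, so the 2 lists are not independent. These markers also moved with the BAT falls. Their summed level in BAT was 26.9, 77.8 and 144 CPM in KI and 119, 328 and 476 CPM in WT mice, against 2320.2, 3482 and 4203 CPM and 3017, 3903 and 4994 CPM in inguinal WAT, and 3 of the 8 markers fell in BAT. The part of white adipocyte RNA in the BAT values was not tested.

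Agt, angiotensinogen, the precursor of angiotensin, rose in inguinal WAT. Its levels were 8.7, 15.6 and 21.8 CPM in KI and 1.08, 2.03 and 2.69 CPM in WT mice there, and 0.107, 0.299 and 0.93 CPM in KI and 0.297, 0.723 and 1.3 CPM in WT mice in BAT. The inguinal groups were fully apart and the BAT groups overlapped. The log2 change in Agt was 2.94 ± 0.25 in inguinal WAT (adjusted p = 6.3e-10) and -1.09 ± 0.46 in BAT (adjusted p = 0.12), with a depot difference of 4.03 ± 0.51 (adjusted p = 9.5e-06).

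Rbp4, the retinol carrier, fell in BAT, where its levels were 9.57, 18.2 and 24.7 CPM in KI and 35.7, 138 and 199 CPM in WT mice. In inguinal WAT they were 83.1, 124 and 158 CPM in KI and 118, 231 and 310.5 CPM in WT mice. The BAT groups did not overlap, as for 176 of the genes tested (1.02%) in this direction. KI minus WT was -2.87 ± 0.33 in BAT (adjusted p = 1.5e-06) and -0.92 ± 0.26 in inguinal WAT (adjusted p = 0.015), with a depot difference of 1.95 ± 0.41 (adjusted p = 0.0034). With each depot fitted on its own, the inguinal fall was called too.

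Nnat, neuronatin, an imprinted gene of white fat and 1 of the white depot markers, had BAT levels of 2.6, 29 and 65.4 CPM in KI and 73.4, 179 and 216 CPM in WT mice, without overlap. In inguinal WAT its levels were 864, 1535 and 2450.1 CPM in KI and 919.6, 1192 and 1486 CPM in WT mice, with overlap. The log2 effect for Nnat was -2.32 ± 0.44 in BAT (adjusted p = 0.0012) and 0.40 ± 0.36 in inguinal WAT, with a depot difference of 2.72 ± 0.57 (adjusted p = 0.0034). Neither depot was called for Nnat by limma-voom or in separate fits per depot (BAT adjusted p = 0.07). Leptin (Lep) was -0.63 ± 0.33 in inguinal WAT and -1.71 ± 0.41 in BAT, and adiponectin (Adipoq) was -0.85 ± 0.12 and -0.63 ± 0.14. Their depot differences, 1.08 ± 0.52 and -0.22 ± 0.18, were not called (adjusted p = 0.22 and 0.53).

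Several genes of lipid handling had a depot difference. Plin2, the coat protein of lipid droplets, had levels of 1343, 2894 and 5188 CPM in KI and 1100.1, 1467 and 1819 CPM in WT mice in BAT, and 338, 393 and 571 CPM in KI and 424, 517 and 761 CPM in WT mice in inguinal WAT. The groups overlapped in both, with the KI median above WT in BAT and below it in inguinal WAT. For Plin2, KI minus WT was 1.06 ± 0.22 in BAT (adjusted p = 0.0017) and -0.41 ± 0.19 in inguinal WAT, with a depot difference of -1.47 ± 0.29 (adjusted p = 0.0014). Neither depot was called for Plin2 by limma-voom or in separate fits per depot (BAT adjusted p = 0.03). Cpt1a, the gate for fatty acids into mitochondria, was 0.45 ± 0.11 in BAT and -0.33 ± 0.09 in inguinal WAT (adjusted p of the difference 0.00081). It was called in BAT, where 5 of 6 KI mice lay above all WT mice, but 7 of 8 inguinal KI mice lay below all WT mice, and with each depot fitted on its own or by limma-voom the inguinal side was called in place of BAT. The BAT-only class of Cpt1a held in 2 of 16 other settings.

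The 2 genes of inherited generalised lipodystrophy in the lists, Bscl2 (seipin) and Agpat2, fell in inguinal WAT only. Bscl2 was -0.92 ± 0.12 there and 0.06 ± 0.13 in BAT (adjusted p of the difference 0.00061), and Agpat2 was -1.01 ± 0.20 and 0.40 ± 0.22 (adjusted p = 0.0033). The acyl-CoA synthetase Acsl1 also fell in inguinal WAT (-1.14 ± 0.15 against -0.18 ± 0.17, adjusted p of the difference 0.0092, called in 6 of 28 leave-one-out fits). Without the muscle-rich profiles none of these 3 differences was called (adjusted p = 0.02, 0.082 and 0.064). In the lipogenic list of 19 genes, 3 of the 4 genes with a called difference were called higher in inguinal WAT only. They were Acacb, the acetyl-CoA carboxylase of the mitochondrial surface, Fads1, the delta-5 desaturase, and Mlxipl, which encodes ChREBP. Their depot differences were 1.19 ± 0.24, 1.11 ± 0.17 and 0.94 ± 0.20. That of Mlxipl joined 0.54 ± 0.13 in inguinal WAT and -0.41 ± 0.15 in BAT, with overlapping genotypes in both. Pck1, which feeds glyceroneogenesis, likewise rose in inguinal WAT, with levels of 1523, 2032 and 3535 CPM in KI and 508, 813 and 1144 CPM in WT mice. In BAT they were 2129, 3046 and 4408 CPM in KI and 2268, 2966 and 3885 CPM in WT mice. The inguinal groups did not overlap and the BAT groups did, at 1.39 ± 0.18 against 0.01 ± 0.20 (adjusted p of the difference 0.0014, and 0.039 without the muscle-rich profiles).

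The 24 genes called in opposite directions were 13 that fell in inguinal WAT and rose in BAT and 11 that did the reverse. Both depots separated the genotypes completely in 4 of the genes tested with opposite order (0.0232%), 2 of them in this class, Acer3 among them. These calls draw on a spread pooled over both depots. When each depot was fitted on its own, 4 of the 24 kept the class, Wwc1, Podn, Rmc1 and Aoc3, and without the muscle-rich profiles the class held 8 genes, 5 of them among the 24.

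Wwc1 (ENSMUSG00000018849, chr11:35838400-35980527), the Hippo pathway scaffold KIBRA, had the largest difference of the class. Its levels were 0.439, 0.85 and 2.05 CPM in KI and 2.03, 3.41 and 6.08 CPM in WT mice in inguinal WAT, and 4.08, 9.89 and 14.2 CPM in KI and 0.292, 0.94 and 2.67 CPM in WT mice in BAT. All BAT KI mice lay above all WT mice, and in inguinal WAT 6 of 8 KI mice lay below all WT mice. The genotype effect on Wwc1 was -1.75 ± 0.36 in inguinal WAT (adjusted p = 0.00098) and 3.06 ± 0.47 in BAT (adjusted p = 7.1e-05), with a depot difference of -4.82 ± 0.60 (adjusted p = 8.3e-06). Amotl2, an angiomotin that holds the Hippo effector Yap at junctions, went the other way, at 0.80 ± 0.12 in inguinal WAT and -0.65 ± 0.14 in BAT (adjusted p of the difference 1.1e-05).

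Nceh1, a hydrolase of cholesterol esters at the ER, followed Wwc1. Its levels were 5.73, 8.47 and 18.7 CPM in KI and 9.04, 19 and 26.2 CPM in WT mice in inguinal WAT, and 18.9, 29.5 and 36.4 CPM in KI and 4.55, 8.04 and 9.63 CPM in WT mice in BAT. The BAT groups did not overlap and the inguinal groups did. The log2 change in Nceh1 was -0.88 ± 0.22 in inguinal WAT (adjusted p = 0.0057) and 1.87 ± 0.27 in BAT (adjusted p = 4.2e-05), with a depot difference of -2.75 ± 0.35 (adjusted p = 1.2e-05).

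Acer3 (ENSMUSG00000030760, chr7:98206389-98321208), an alkaline ceramidase, had levels of 8.48, 11.4 and 12.4 CPM in KI and 12.6, 15.1 and 16.5 CPM in WT mice in inguinal WAT, and 14.5, 16.1 and 17.9 CPM in KI and 8.51, 11 and 12.3 CPM in WT mice in BAT. KI mice lay wholly below WT mice in inguinal WAT and wholly above them in BAT. Its effects were -0.42 ± 0.09 and 0.58 ± 0.11, with a depot difference of -0.99 ± 0.14 (adjusted p = 5.2e-05). Without the muscle-rich profiles neither depot was called for Acer3, at -0.35 ± 0.10 in inguinal WAT (adjusted p = 0.021) and 0.50 ± 0.12 in BAT (adjusted p = 0.013), while the depot difference was.

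Other genes also fell in inguinal WAT and rose in BAT. Rmdn3 (PTPIP51), a tether between mitochondria and the ER, was -0.59 ± 0.10 and 0.56 ± 0.11. Rmc1, a subunit of a complex that matures late endosomes, was -0.36 ± 0.08 and 0.55 ± 0.10. The deubiquitinase Stambpl1, the guanine nucleotide exchange factor Dock5, the transcobalamin receptor Cd320, the base excision repair enzyme Apex1, Lynx1 and 1810058I24Rik had depot differences between -1.64 and -0.91.

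Among genes that rose in inguinal WAT and fell in BAT, the small leucine-rich proteoglycan Podn (podocan, ENSMUSG00000028600, chr4:108014791-108096445) was called in both depots also when each was fitted alone. Its levels were 87, 137 and 191 CPM in KI and 39.2, 63.2 and 90.3 CPM in WT mice in inguinal WAT, and 6.4, 13.4 and 15.9 CPM in KI and 18.9, 27.3 and 29.5 CPM in WT mice in BAT. The BAT groups were fully apart, and the inguinal groups overlapped only at the edge. The log2 effect for Podn was 1.13 ± 0.17 (adjusted p = 2.4e-05) and -1.03 ± 0.22 (adjusted p = 0.0025), with a depot difference of 2.16 ± 0.28 (adjusted p = 1.2e-05). Aoc3, an amine oxidase at the adipocyte surface, was 0.51 ± 0.14 and -0.78 ± 0.16, with a depot difference of 1.29 ± 0.21 (adjusted p = 0.00018).

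Phkg1, a catalytic subunit of muscle phosphorylase kinase, had levels of 6.55, 8.93 and 15.2 CPM in KI and 3.16, 4.13 and 5.15 CPM in WT mice in inguinal WAT, and 0.465, 0.738 and 1.38 CPM in KI and 0.876, 1.3 and 6.03 CPM in WT mice in BAT. The high BAT WT values were those of the muscle-rich mice 1 and 2. For Phkg1, KI minus WT was 1.27 ± 0.28 in inguinal WAT and -1.63 ± 0.41 in BAT (adjusted p = 0.0096), and without the muscle-rich profiles the BAT value was -0.70 ± 0.31 (adjusted p = 0.27). H6pd, which makes NADPH inside the ER, Adamtsl4 and 0610030E20Rik had depot differences of 1.09 ± 0.16, 1.30 ± 0.20 and 0.86 ± 0.14. A further 4 of the 24 were named after their values were seen. They were Scarb2, a lysosomal membrane protein (-0.59 ± 0.09), Sun1 of the nuclear envelope (0.59 ± 0.10), the connexin Gjc1 (0.79 ± 0.13) and the sorting nexin Snx25 (0.82 ± 0.13).

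**Figure D5:**
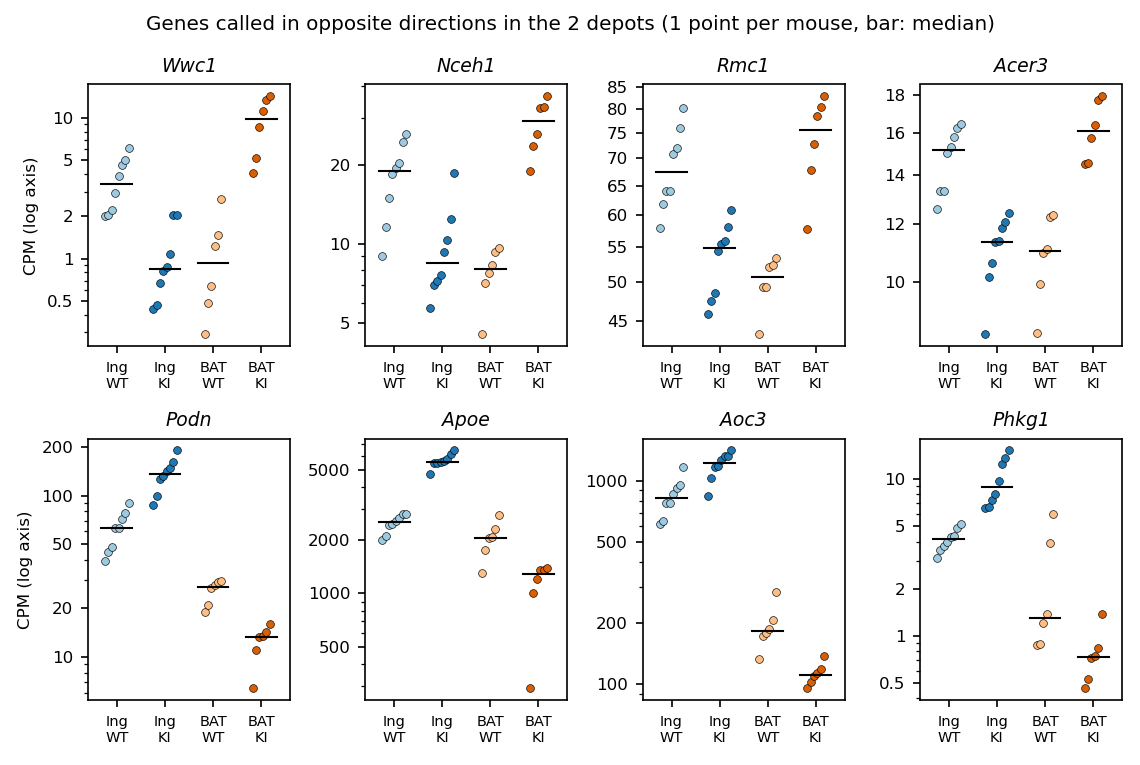
Levels of 8 genes called in both depots in opposite directions, in CPM on a log axis, with 1 point per mouse and the median as a bar. Wwc1, Nceh1, Rmc1 and Acer3 (upper row) are lower in KI than WT mice in inguinal WAT and higher in BAT, and Podn, Apoe, Aoc3 and Phkg1 (lower row) are higher in inguinal WAT and lower in BAT.

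Outside the ISR, the BAT-only rise with the smallest adjusted p was that of Cbr3 (ENSMUSG00000022947, chr16:93683215-93690990), a carbonyl reductase induced by the antioxidant factor Nrf2. Its levels were 35.3, 109 and 157 CPM in KI and 5.53, 8.71 and 9.5 CPM in WT mice in BAT, and 2.89, 4.85 and 6.61 CPM in KI and 3.39, 4.81 and 7.47 CPM in WT mice in inguinal WAT. The BAT groups were far apart and the inguinal groups overlapped. The genotype effect on Cbr3 was 3.65 ± 0.27 in BAT (adjusted p = 4.3e-10) and -0.08 ± 0.22 in inguinal WAT (95% interval -0.53 to 0.36), with a depot difference of -3.74 ± 0.34 (adjusted p = 9.1e-08).

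Of 22 Nrf2 targets 5 rose in each depot, with list medians of 0.14 in inguinal WAT and 0.28 in BAT. The 4 depot differences (18.2%) were divided. Cbr3 and Cbr1, which lie close together on chromosome 16, rose in BAT only, Cbr1 by 1.10 ± 0.15 against 0.17 ± 0.12 (adjusted p of the difference 0.0023). The glutathione transferases Gstm1 and Gsta4 rose in inguinal WAT only. Gstm1 had levels of 429, 566 and 737 CPM in KI and 179, 242 and 376 CPM in WT mice in inguinal WAT, and 129, 175 and 231 CPM in KI and 157, 209.6 and 261 CPM in WT mice in BAT. The inguinal groups did not overlap and the BAT groups did. Its effects were 1.19 ± 0.14 and -0.21 ± 0.16 (adjusted p of the difference 6.1e-05), and reads shared with other transferases of its family could move between them. For Gsta4 they were 1.35 ± 0.21 and 0.00 ± 0.23 (adjusted p = 0.0072, called in 12 of 28 leave-one-out fits, and 0.012 without the muscle-rich profiles).

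Apol6 (ENSMUSG00000033576, chr15:77044729-77057106), an intracellular apolipoprotein L, fell in BAT only, with the smallest adjusted p of the 151 BAT-only genes. Its levels were 16.3, 25.2 and 32.5 CPM in KI and 105, 136 and 191 CPM in WT mice in BAT, and 327, 400.0 and 507 CPM in KI and 303, 448 and 515 CPM in WT mice in inguinal WAT. The BAT groups were fully apart and the inguinal groups overlapped. The log2 change in Apol6 was -2.48 ± 0.17 in BAT (adjusted p = 6.3e-11) and -0.11 ± 0.14 in inguinal WAT (95% interval -0.39 to 0.17), with a depot difference of 2.36 ± 0.21 (adjusted p = 7.3e-08). Egln3, an oxygen-sensing prolyl hydroxylase that is itself induced by hypoxia, also fell in BAT only. Its BAT levels were 1.39, 2.43 and 3.06 CPM in KI and 6.42, 14.1 and 22.1 CPM in WT mice, without overlap. Its effects were -2.64 ± 0.34 in BAT and -0.14 ± 0.28 in inguinal WAT (adjusted p of the difference 0.00047). In the hypoxia list 3 of 20 genes differed by depot, the others being Ndrg1 (0.84 ± 0.19) and Hif1a (-0.56 ± 0.13, called in 8 of 28 leave-one-out fits). Neither was called without the muscle-rich profiles (adjusted p = 0.024 and 0.078).

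Further BAT-only falls were those of Mc2r, the ACTH receptor (-1.73 ± 0.35 against 0.50 ± 0.17), Wscd2 (-2.21 ± 0.28 against 0.12 ± 0.20) and Smad7, an inhibitor of TGF-beta signalling (-0.99 ± 0.20 against 0.36 ± 0.17). In the other direction, Pla2g2e, a secreted phospholipase, rose in BAT (2.58 ± 0.43) and was at -1.18 ± 0.36 in inguinal WAT (adjusted p = 0.023). Dhrs9, a retinol dehydrogenase, rose in BAT (2.11 ± 0.42) and was at -1.08 ± 0.41 in inguinal WAT (adjusted p = 0.081). Aldoc, aldolase C, rose in BAT (1.93 ± 0.47) and was at -0.99 ± 0.40 in inguinal WAT. Adjusted p-values of these 6 depot differences ranged from 7.1e-05, 0.0001, 0.0012 and 0.00047 for Wscd2, Pla2g2e, Dhrs9 and Mc2r to 0.0015 for Smad7 and 0.0032 for Aldoc. Those of Smad7 and Aldoc were 0.021 and 0.074 without the muscle-rich profiles. In separate fits per depot neither depot was called for Mc2r, Smad7 and Pla2g2e, and by limma-voom for Mc2r, Smad7, Wscd2 and Aldoc.

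On the inguinal side, Igfbp4, which binds and restrains insulin-like growth factors, rose. Its levels were 567, 911 and 1095 CPM in KI and 273, 359 and 403 CPM in WT mice in inguinal WAT, and 52.2, 81.7 and 98.5 CPM in KI and 73.8, 108 and 125 CPM in WT mice in BAT. The inguinal groups were apart, and in BAT the groups overlapped with the KI median lower. KI minus WT was 1.36 ± 0.13 in inguinal WAT and -0.32 ± 0.16 in BAT (adjusted p of the difference 6.1e-06). Grb10, an adaptor that dampens insulin receptor signalling, rose by 0.43 ± 0.09 in inguinal WAT only (adjusted p of the difference 0.004, and 0.028 without the muscle-rich profiles).

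Ifi27l2a, an interferon-induced gene, fell steeply in inguinal WAT. Its levels were 72.4, 134 and 209.9 CPM in KI and 1241, 1874 and 2174 CPM in WT mice there, and 49.2, 123 and 252 CPM in KI and 151, 319 and 419 CPM in WT mice in BAT. The inguinal groups were far apart and the BAT groups overlapped. The log2 effect for Ifi27l2a was -3.85 ± 0.29 in inguinal WAT and -1.20 ± 0.31 in BAT (adjusted p = 0.012), with a depot difference of -2.65 ± 0.41 (adjusted p = 0.00014). Without the muscle-rich profiles the BAT fall was called too, at -1.72 ± 0.29. It was the 1 gene of 27 in the interferon list with a depot difference. The summed level of 12 lymphocyte markers was 74.5, 121 and 1192 CPM in KI and 402, 807 and 1700.3 CPM in WT inguinal WAT, against 21.1, 38.5 and 60.8 CPM and 20.4, 72.1 and 153 CPM in BAT. Most of it was the immunoglobulin gene Ighm, at 56.9, 104 and 339 CPM in KI and 367, 719.6 and 1119 CPM in WT mice in inguinal WAT. Ighm was the 1 of the 12 that edgeR called lower there (-2.57 ± 0.43, adjusted p = 0.00014). Limma-voom also called 1 of the 12 lower there, whereas DESeq2 called 8. The median of the list was -0.07, with 4 of the 12 above zero. The part of lymphocyte RNA in the inguinal falls was not tested.

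Other large effects were called in inguinal WAT only. Hspb7, a small heat shock protein, rose there (1.92 ± 0.38 against -1.90 ± 0.55 in BAT, adjusted p of the difference 0.0007). So did P2rx3, an ATP-gated channel (2.11 ± 0.22 against -0.94 ± 0.29), and Chrdl1, a BMP antagonist (1.35 ± 0.22 against -1.50 ± 0.43). Their BAT estimates were below zero but not called. Of 6 BAT KI mice, 5, 5 and 4 lay below every WT mouse for Hspb7, P2rx3 and Chrdl1. Hapln4, a hyaluronan link protein, fell in inguinal WAT (-3.97 ± 0.36 against 0.08 ± 0.34, adjusted p of the difference 5.4e-06). Cacng5, a channel regulator, was at 2 counts or fewer in every inguinal KI mouse and at least 11.7-fold lower than in inguinal WT mice, with 3 counts per mouse as the floor. In BAT no mouse had more than 3 counts, so that its depot difference (adjusted p = 0.0025, and 0.012 without the muscle-rich profiles) has no BAT level to rest on. Likewise Elane, a neutrophil elastase gene, had 0 counts in all BAT KI mice and at most 4 in BAT WT mice, and Gm43413 at most 1 and 6, both too few for a fold change. Their depot differences were not called without the muscle-rich profiles (adjusted p = 0.027 and 0.074).

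The 8 genes called in both depots with the same sign were Gadd45a, Asns, Chchd10, Gm867, A830018L16Rik, Aig1, Hp and Cers4, of which 6 rose and 2 fell. Gadd45a, a stress-induced growth arrest gene, rose in both depots and more in BAT. Its levels were 13, 125 and 199 CPM in KI and 4.82, 7.13 and 9.63 CPM in WT mice in BAT, and 44.8, 67 and 75 CPM in KI and 13.8, 15.1 and 21.3 CPM in WT mice in inguinal WAT. KI mice were above all WT mice in both depots. For Gadd45a, KI minus WT was 4.01 ± 0.37 in BAT and 1.93 ± 0.28 in inguinal WAT, with a depot difference of -2.08 ± 0.45 (adjusted p = 0.0046). The BAT KI mice ranged widely. The depot difference of Gadd45a was called in 27 of 28 leave-one-out fits and in 8 of 13 other settings. Limma-voom did not call it (adjusted p = 0.15), nor did the fit without the 3 profiles with high Cd79a (adjusted p = 0.012).

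Chchd10, a protein of the mitochondrial intermembrane space, rose more in inguinal WAT, from a lower level. Its levels were 171, 275 and 375 CPM in KI and 26.2, 44.5 and 69.5 CPM in WT mice there, and 2843, 3399 and 4945 CPM in KI and 1447, 1772 and 2113 CPM in WT mice in BAT, where even WT mice exceeded the inguinal KI mice. The genotypes were apart in both depots. The genotype effect on Chchd10 was 2.60 ± 0.19 in inguinal WAT and 1.04 ± 0.21 in BAT, with a depot difference of 1.56 ± 0.27 (adjusted p = 0.00051). Gm867 overlaps Chchd10 on chromosome 10, and its counts may be those of Chchd10. Hp, the haemoglobin scavenger haptoglobin, fell in both depots and more in inguinal WAT (-2.46 ± 0.16 against -0.80 ± 0.18, adjusted p of the difference 3.5e-05).

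The 71 genes called in neither depot were split around zero, 43 with a higher inguinal and lower BAT estimate and 28 the reverse. They included Cebpa, a master factor of adipocyte differentiation (0.50 ± 0.16 in inguinal WAT and -0.53 ± 0.18 in BAT, adjusted p of the difference 0.0077), the glycerol kinase Gk (-0.45 ± 0.16 and 0.65 ± 0.18, adjusted p = 0.0053), and the matrix genes Col18a1 (0.92 ± 0.20), Fbln5 (0.87 ± 0.20) and Thbs2 (1.54 ± 0.34). Leave-one-out fits called Cebpa in 12 of 28, Fbln5 in 20, Thbs2 in 23, Gk in 25 and Col18a1 in all. Without the muscle-rich profiles Cebpa, Gk, Col18a1 and Fbln5 were not called (adjusted p = 0.027, 0.034, 0.023 and 0.021).

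Of the 48 lists examined, 17 had no member called for a depot difference, among them one-carbon enzymes, clock genes, mitochondrial DNA maintenance genes, matrix proteases, glucose transporters and 9 of the 10 marker lists of cell types and depots. The 14 skeletal muscle markers, also without a call, had a median depot difference of 3.30, with no estimate below zero. Their median in BAT was -2.64, with no estimate above zero and 1 marker called lower in KI mice. Muscle RNA was thus not balanced between the genotypes in BAT. For the 18 macrophage markers edgeR, DESeq2 and limma-voom called no depot difference, with 1 at an unadjusted p below 0.05. In inguinal WAT alone they called 1, 2 and 1 of the 18 lower in KI mice. Of 17 one-carbon enzymes 2 rose and 1 fell in inguinal WAT and 4 rose in BAT. Their depot differences had an unadjusted p below 0.05 in 3 genes, with no call by edgeR or limma-voom and 1 by DESeq2. Among 36 collagens, 5 fell in inguinal WAT, 3 fell in BAT and 1 differed by depot (2.78%, close to the 2.82% of all genes). ER chaperones differed in 2 of 24, Pdia4 (0.58 ± 0.13) and Derl2 (-0.43 ± 0.10, called in 4 of 28 leave-one-out fits), neither called without the muscle-rich profiles (adjusted p = 0.021 and 0.045), and the TGF-beta list in 1 of 26, Smad7.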

How the data were processed

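Raw read counts per gene were used as deposited. The labels give the molecule as polyA RNA. Per the study's methods, the authors trimmed RNA-seq reads with cutadapt, mapped them to GRCm38 (STAR, SAMtools) and summarised them by featureCounts, with versions and strand setting not given in the sources used here, nor how the 2 libraries of an inguinal mouse were joined. Of 54838 entries, 1884 without a count and repeats of 99 symbols were left out, leaving 52853 genes.

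The 4 HFD groups were fitted together with edgeR 4.0.16 in R 4.3.3 (TMM, filterByExpr with a minimum count of 10, robust quasi-likelihood), all profiles being taken as independent. Every adjusted p is Benjamini-Hochberg over 17214 genes, and calls are below 0.01, the study's threshold. Each standard error is the size of the log2 value divided by the root of F. Alternatives included DESeq2 1.42.0, limma-voom (limma 3.58.1), other scalings, filters and thresholds, blocks and each profile left out. In simulated counts 161 of 200 genes changed by 1.5 (log2) were recovered among 16968, with 3 false calls. The simulation gave each gene the same spread in both depots, held no muscle-rich mice and changed well-counted genes in inguinal KI mice only. It therefore does not speak to BAT-only or opposite calls, nor to a spread that differs between depots.

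The members and lists were chosen with earlier results of these data known. Genes were named by rule: Mfn2 and Mfn1, the 10 largest differences of each sign, up to 20 of opposite direction, up to 3 per list, those the study names, and the 3 largest of each sign passing the filter in 1 depot. Lists with at most 5 calls were named in full after values were seen. A few genes are not reported here.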

Additional observations from a re-analysis of the deposited data

Results flagged for a closer look

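The genotype effect differed between the depots in 485 genes by the test of the difference itself, and 24 of these were called in opposite directions.

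Among 212 groups of mice, 1 for each gene described by range and each depot and genotype, 18 held a mouse whose gap to the next exceeded Dixon's 95% critical value, where chance gives about 1 in 20. BAT KI mouse 5 accounted for 5 of them. It had the highest level of Fgf21 (152 CPM), Vldlr (325 CPM), Insig1 (289 CPM) and Elovl3 (602 CPM) and the lowest of Apoe (292 CPM) among BAT KI mice, and the values without it are given with Fgf21 and Elovl3. Inguinal KI mouse 5, a muscle-rich profile, was highest for Atf3 (26.0 CPM), Dhrs9 (2.94 CPM) and Cacng5 (0.0646 CPM). Inguinal KI mouse 3, also muscle-rich, was highest for Mfn1 (48.4 CPM) and Hmgcs1 (185 CPM). BAT KI mouse 6 was highest for Hspb7 (5.97 CPM).

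Inguinal KI mouse 2 was lowest for Wscd2 (10.2 CPM). In WT mice the gaps were those of Mfn2 in BAT mouse 1 (366 CPM), Fgf21 in BAT mouse 4 (5.79 CPM) and inguinal mouse 1 (3.42 CPM), Cacng5 in BAT mouse 5 (0.268 CPM), Lep in inguinal mouse 7 (3531 CPM) and Wscd2 in inguinal mouse 4 (20.2 CPM), each the highest of its group.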

How the results depend on the processing

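The number of genes with a depot difference (485) stayed within a factor of 1.5 under RLE size factors (485), other filters (378 to 505), no mitochondrially encoded genes (465), all 6 groups in 1 fit (399) and limma-voom (443). It moved to 844 with DESeq2, which shared 478 with the 485, to 278 with inguinal counts thinned to BAT depth and inguinal mice 7 and 8 left out together, to 1280 and 163 at thresholds of 0.05 and 0.001, and to 204 without the 7 muscle-rich profiles, chosen after seeing the data, as was leaving out the 3 profiles with high Cd79a (428). Leaving out 1 mouse gave 362 (without BAT WT 6) to 570 (without inguinal KI 2), with 102 to 197 BAT-only, 175 to 286 inguinal-only, 14 to 29 opposite and 5 to 12 same-direction genes.

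The classes moved more. In the order inguinal only, BAT only, opposite and same direction, DESeq2 gave 376, 278, 44 and 22, thinning 147, 80, 12 and 2, a threshold of 0.05 517, 483, 94 and 35, and 0.001 91, 43, 1 and 0. Without muscle-rich profiles the first 3 were 84, 86 and 8. BAT-only and opposite genes numbered 55 and 4 by limma-voom and 65 and 4 with a separate fit per depot, which called 239 genes in BAT and 1890 in inguinal WAT. Opposite genes were 14 without a filter, with 5 of the same direction, and 11 with all 6 groups. The interval within a fold of 1.5 left 102 inguinal-only genes.

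Replicate numbers did not pair the mice. Across depots 1 of 12 same-numbered pairs correlated above 0.1 (range -0.0934 to 0.16) and across genotypes 4 of 14 did (-0.266 to 0.703). The same-numbered profile was the best match in 3 of the 12 and 4 of the 14. A replicate block within genotype across depots gave 180 genes, 171 of them among the 485, and a block within depot gave 491.

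Of 94 named genes with a depot difference, 42 kept sign and call in every alternative, 25 lost the call in at least 1 leave-one-out fit, and none changed sign. The depot interaction of Mfn2, which was not called, changed sign, to -0.00295 with RLE, -0.00294 with all 6 groups, -0.00286 with DESeq2, -0.0126 with the block across depots, -0.0238 thinned and -0.11 without muscle-rich profiles, and lay between -0.0499 and 0.0882 in leave-one-out fits. The causes were not tested. BAT had less deep libraries and fewer mice, and their part in the number of BAT calls was not tested. No list median moved by more than 0.03 under the scalings tried.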
